A study of Rattus norvegicus with 30 samples.

Results

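This report describes 10 genes used to recognise macrophages, *Cd68*, *Adgre1*, *Csf1r*, *Cd163*, *Mrc1*, *C1qa*, *C1qb*, *C1qc*, *Marco* and *Msr1*, in kidneys of rats fed low or high salt. They were taken by gene symbol from a table of 32545 genes, of which 22293 were protein coding, and all 10 symbols were found once. mRNAseq libraries came from the cortex (Cx) and the outer medulla (OM) of the right kidney of male Sprague-Dawley rats. LS rats ate 0.4% NaCl, and HS14 and HS21 rats had eaten 4.0% NaCl for 14 and 21 d, with 5 libraries per tissue and diet and 30 in all. The rats carried no genetic change or drug by the labels, and the study gives an age for rats at the implantation of a flow probe and catheters, without saying which of them gave these kidneys. Each library was made from snap-frozen whole tissue, so fewer macrophages and less RNA per macrophage cannot be told apart. The question was how expression of these genes differed between the diets within each tissue, and whether genes of resident macrophages followed the genes that all macrophages carry.

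Macrophages in the kidney lie between the tubules, take up debris and proteins, present antigen and release cytokines. Some are seeded before birth and renew locally, and others derive from blood monocytes, and Csf1r, the receptor for the growth factors CSF-1 and IL-34, keeps both alive. The lysosomal glycoprotein Cd68 and the adhesion G protein-coupled receptor Adgre1 (F4/80) are found on most macrophages, and these 3 genes are called pan-macrophage genes here. Cd163, which takes up haemoglobin bound to haptoglobin, and Mrc1, the mannose receptor CD206, mark many resident or alternatively activated macrophages. C1qa, C1qb and C1qc are the chains of C1q, the recognition molecule of the classical complement pathway, which macrophages secrete. Marco and Msr1 are scavenger receptors that bind bacteria and modified lipoproteins.

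Counts on genes summed to between 12748841 and 21842843 read pairs in 29 of the libraries and to 5408126 in replicate 10 of OM HS14. Levels are given in CPM, read pairs scaled to a common library size with TMM factors over the 30 libraries, and as CPM per kilobase of the deposited gene length where genes are compared with each other. Diets were compared by edgeR's quasi-likelihood *F*-test. A gene counts as raised or lowered where its *P*, after Benjamini and Hochberg's adjustment across the whole set of tested genes, was under 0.05. The labels do not say whether libraries of a group came from separate rats, while the study describes 5 kidneys per group. Pairs of libraries of the same group differed by at least 7.29 times the counting noise, so none was a copy. A pair of OM libraries stood apart. In replicate 2 of OM LS, 5 proximal tubule markers summed to 10820 CPM, against a median of 4115 CPM in its group, and 3 thick ascending limb and distal tubule markers to 9915 CPM, against a median of 16420 CPM. The other is replicate 10 of OM HS14, with the fewest counts. In the quality control of the study, this library also had the smallest share of mapped reads, the smallest share of bases in exons and the largest in introns. Values without each of these libraries stand beside the OM results. In the Cx, replicate 10 of HS14 had the lowest sum of the proximal tubule markers in its group, 10990 CPM against a median of 15070 CPM. Its sum of the thick ascending limb and distal tubule markers was the highest of the group, 4481 CPM against a median of 2696 CPM. Values without it stand beside the Cx results at HS14.

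On the Rnor_6.0 build, *C1qb* (chr5:155246447-155252003), *C1qc* (chr5:155255005-155258392) and *C1qa* (chr5:155261250-155264143) lie side by side on the minus strand. *Cd68* (chr10:56268720-56270640) and *Adgre1* (chr9:9431860-9585865) are on the minus strand, and *Csf1r* (chr18:56414488-56458300), *Cd163* (chr4:156752082-156785467) and *Mrc1* (chr17:81352700-81433743) on the plus strand. *Msr1* (chr16:56813791-56900052) and *Marco* (chr16:85115201-85135859) are on the minus strand. The libraries were not strand-specific, so reads from either strand of these genes cannot be told apart. In the RefSeq GRCr8 table *Marco* lies on chromosome 13, and *Adgre1* on the plus strand of chromosome 9. The rows of all members were identified by symbol alone. No other gene of the table overlaps a member except *Mir511*, within *Mrc1*, which had 0 counts.

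The 250 bases upstream of the start of transcription were read from RefSeq (GRCr8) for the 8 members with an entry, all but *C1qc* and *Msr1*. They were searched on both strands for GAGGAA, a core of the binding sites of the myeloid transcription factor PU.1, which is encoded by *Spi1*. The motif was present in 6 of the 8 windows, and in 23.3% of the 33469 windows of the same length in the RefSeq table. The windows of *Cd68* and *Mrc1* are shown as examples of a pan-macrophage and a resident gene, and those of *C1qa* and *C1qb* because these neighbours moved together and differ in the motif. Capitals mark the motif, as TTCCTC where it lies on the other strand.
Cd68 (chr10:54882442-54882691, minus strand): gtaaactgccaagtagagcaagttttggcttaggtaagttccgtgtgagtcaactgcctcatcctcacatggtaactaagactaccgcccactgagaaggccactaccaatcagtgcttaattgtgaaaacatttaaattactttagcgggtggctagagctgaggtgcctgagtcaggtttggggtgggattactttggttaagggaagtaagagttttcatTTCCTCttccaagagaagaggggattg
Mrc1 (chr17:82157475-82157724, plus strand): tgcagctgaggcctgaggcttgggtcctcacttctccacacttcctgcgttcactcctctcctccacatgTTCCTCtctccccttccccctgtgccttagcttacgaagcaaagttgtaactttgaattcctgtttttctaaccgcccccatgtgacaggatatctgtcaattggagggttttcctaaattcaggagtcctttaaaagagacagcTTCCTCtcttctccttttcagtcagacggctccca
C1qb (chr5:154407828-154408077, minus strand): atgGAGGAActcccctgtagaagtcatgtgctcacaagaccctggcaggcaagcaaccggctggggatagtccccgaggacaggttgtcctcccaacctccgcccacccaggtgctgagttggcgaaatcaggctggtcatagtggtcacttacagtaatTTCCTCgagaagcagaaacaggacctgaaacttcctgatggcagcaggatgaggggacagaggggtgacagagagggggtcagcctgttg
C1qa (chr5:154419934-154420183, minus strand): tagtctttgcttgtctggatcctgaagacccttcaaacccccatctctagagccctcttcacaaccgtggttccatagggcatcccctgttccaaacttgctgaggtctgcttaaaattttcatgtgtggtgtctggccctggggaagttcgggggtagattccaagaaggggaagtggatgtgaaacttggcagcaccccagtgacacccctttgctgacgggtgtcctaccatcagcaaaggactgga
The first base of the motif lay 27 bases upstream of the start in *Cd68*, 180 and 35 bases in *Mrc1*, and 247 and 90 bases in *C1qb*. It lay 207 bases upstream in *Adgre1*, 229 and 95 bases in *Csf1r* and 104 bases in *Marco*, whose window is on chromosome 13 and may not belong to the counted row. The windows of *C1qa* and *Cd163* held no match. A match is a run of letters and was not tested as a binding site.

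In the Cx on LS, the C1q chains were the most abundant of the 10 transcripts per length and *Cd163* and *Marco* the least. Mean levels per kilobase were 25.6 CPM for *C1qc*, 22.9 for *C1qa*, 14.7 for *C1qb*, 12.5 for *Csf1r*, 5.89 for *Cd68* and 4.15 for *Adgre1*. *Mrc1* followed at 0.738 and *Msr1* at 0.322 CPM per kilobase. The ranges over the 5 libraries overlapped between neighbours in this order, except that *Csf1r* (11.5 to 13.6) lay above *Cd68* (4.06 to 8.67) and *Adgre1* (2.89 to 5.75) above *Mrc1* (0.504 to 1.09). In the OM on LS, *Csf1r* was at 19.0 CPM per kilobase and *C1qb* at 14.9, with overlapping ranges, and *Mrc1* was at 1.46. At HS21 the order in the Cx was the same for the first 8 genes, led by *C1qc* at 88.4 and *C1qa* at 83.1 CPM per kilobase.

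**Figure D1:**
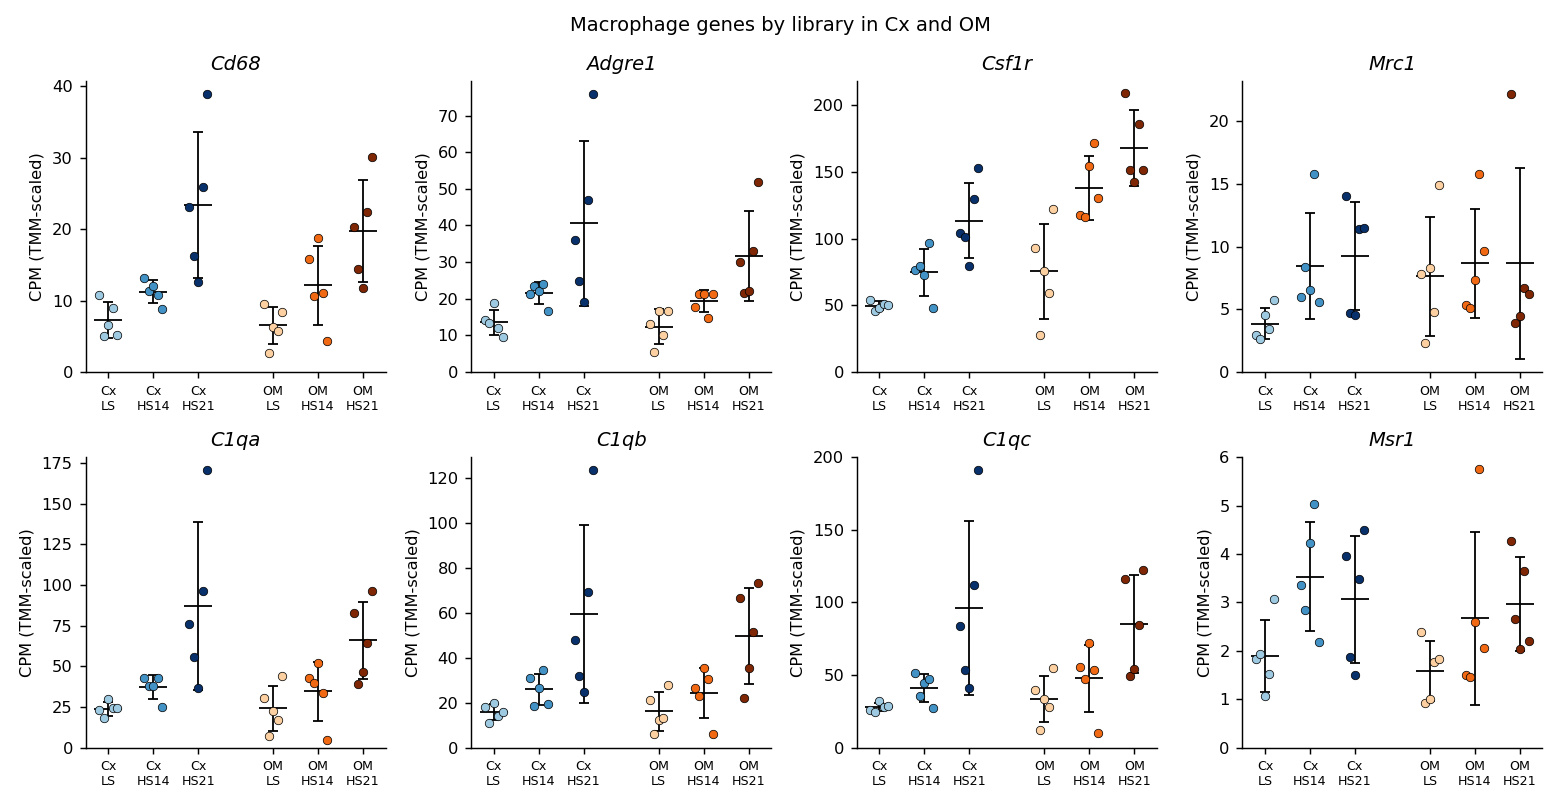
Level in CPM (vertical axes) of the 8 members that passed the filter on low counts, in every library (points) of the 6 groups of tissue and diet (horizontal axis), with the mean and SD of each group (bars). In the Cx, *Cd68*, *Adgre1*, *Csf1r* and the C1q chains lie higher in every HS21 library than in every LS library, and replicate 15 is the highest HS21 library for 7 of the 8 genes.

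In the Cx, all 3 pan-macrophage genes were raised at HS21, between 2.25- and 3.17-fold. *Cd68* was measured at 10.8, 5.04, 6.62, 8.97 and 5.13 CPM in the 5 LS libraries, at 13.1, 11.4, 12.1, 10.7 and 8.89 CPM in the HS14 libraries, and at 23.1, 16.3, 12.6, 26.0 and 38.9 CPM in the HS21 libraries. Every HS21 library lay above every LS library, while HS14 overlapped both. The log2 ratio of HS21 to LS was 1.66 (SE 0.31, adjusted *P* = 0.00147). *Adgre1* had 14.3, 13.5, 18.8, 11.9 and 9.43 CPM on LS, 21.4, 23.6, 22.1, 23.999 and 16.7 CPM at HS14, and 35.9, 24.8, 19.2, 47.1 and 75.9 CPM at HS21. The lowest HS21 library was just above the highest LS library, and the log2 ratio was 1.57 (SE 0.34, adjusted *P* = 0.00346). *Csf1r* had 54.0, 45.8, 47.9, 51.2 and 50.3 CPM on LS, 76.5, 79.3, 73.0, 96.9 and 47.7 CPM at HS14, and 105, 101, 79.4, 129.5 and 153 CPM at HS21. It had the narrowest spread on LS, and its log2 ratio of HS21 to LS of 1.17 (SE 0.14) had the lowest adjusted *P* of the members, 0.000129. At HS14 replicate 10 was the lowest of the 5 libraries for 7 of the 8 members tested and lay within the LS range for all 8.

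In the OM, the same genes were higher at HS21 than on LS in every library, but did not pass the adjusted threshold. *Cd68* had 9.51, 2.69, 6.34, 5.80 and 8.35 CPM on LS, 15.9, 10.7, 18.8, 11.029 and 4.30 CPM at HS14, and 20.3, 14.5, 11.8, 22.4 and 30.1 CPM at HS21. Groups LS and HS21 did not overlap, and the log2 ratio was 1.57 (SE 0.34, adjusted *P* = 0.0719). *Adgre1* had 13.1, 5.46, 16.7, 10.1 and 16.6 CPM on LS, 17.9, 21.4, 21.4, 14.7 and 21.2 CPM at HS14, and 30.1, 21.5, 22.2, 33.2 and 51.8 CPM at HS21, with a log2 ratio of HS21 to LS of 1.33 (SE 0.33, adjusted *P* = 0.101). *Csf1r* had 92.9, 27.5, 76.1, 59.3 and 122 CPM on LS, 118, 117, 155, 171 and 131 CPM at HS14, and 209, 152, 142, 186 and 152 CPM at HS21, and its log2 ratio was 1.14 (SE 0.32, adjusted *P* = 0.147). Replicate 2 of OM LS, the library with the most proximal tubule RNA of its group, was the lowest of its group for all 8 members. Without it the log2 ratios at HS21 were 1.38 for *Cd68*, 1.15 for *Adgre1* and 0.93 for *Csf1r*, with adjusted *P* of 0.063, 0.0922 and 0.0722.

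The C1q chains had the largest ratios of the members in the Cx, between 3.42- and 3.71-fold at HS21. *C1qa* was measured at 23.0, 18.0, 30.2, 24.7 and 24.4 CPM on LS, at 42.8, 37.8, 38.0, 42.7 and 24.9 CPM at HS14, and at 75.8, 55.8, 37.0, 96.2 and 171 CPM at HS21. Every HS21 library was above every LS library, and the HS21 libraries spread more widely, from replicate 13 as the lowest to replicate 15 as the highest. The log2 ratio of HS21 to LS was 1.84 (SE 0.34, adjusted *P* = 0.00152) for *C1qa*, 1.89 (SE 0.39, adjusted *P* = 0.00265) for *C1qb* and 1.77 (SE 0.35, adjusted *P* = 0.00207) for *C1qc*. *C1qb* rose from a mean of 15.9 ± 3.51 CPM on LS to 59.5 ± 39.7 CPM at HS21 (SD, n = 5), with 25.9 ± 6.99 CPM at HS14. *C1qc* rose from 27.9 ± 2.88 CPM to 96.4 ± 59.8 CPM (SD, n = 5), with 41.3 ± 9.65 CPM at HS14. Replicate 15 held 7 of the 8 highest member levels of Cx HS21, and replicate 13 all 8 of the lowest. Without replicate 15 the log2 ratios of *C1qa*, *C1qb* and *C1qc* were 1.46, 1.45 and 1.38, each still called.

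In the OM, *C1qa* was at 30.3, 7.47, 22.5, 17.2 and 44.0 CPM on LS, at 42.7, 40.0, 52.0, 33.8 and 4.82 CPM at HS14, and at 83.1, 39.4, 46.5, 64.5 and 96.3 CPM at HS21. The lowest HS21 library was below the highest LS library, so the groups overlapped. The log2 ratio of HS21 to LS was 1.42 (SE 0.42, adjusted *P* = 0.163), against 1.60 (SE 0.42, adjusted *P* = 0.125) for *C1qb* and 1.32 (SE 0.39, adjusted *P* = 0.161) for *C1qc*. Without replicate 2 of OM LS they were 1.198, 1.40 and 1.11, none called. At HS14 replicate 10 was below every other library of its group for the 3 chains, with 28 read pairs on *C1qa*, 36 on *C1qb* and 57 on *C1qc*.

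The 3 chains, which join in a fixed ratio in the C1q protein, were compared per kilobase in every library. Over the 30 libraries, *C1qa* was 1.503 ± 0.256 times *C1qb* and 0.842 ± 0.131 times *C1qc*, and *C1qb* was 0.568 ± 0.0844 times *C1qc* (SD, n = 30). The ratio of *C1qa* to *C1qc* ran from 0.756 to 1.11 in the Cx libraries and from 0.511 to 0.893 in the OM libraries. This difference between the tissues was not tested. The lowest ratio of *C1qa* to *C1qb*, 0.804, was in replicate 10 of OM HS14. That library also had the lowest ratio of *C1qa* to *Csf1r* per kilobase, 0.140, against 0.749 in the next lowest library and a median of 1.56. Its ratio of *Cd68* to *Adgre1*, 0.535, was below the next lowest, 0.928, and the median of 1.48. In that library the short transcripts *Cd68* and the C1q chains were low, while the longer *Adgre1*, *Csf1r*, *Mrc1* and *Msr1* lay between the other libraries of the group. The part of transcript length in these values was not tested.

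**Figure D2:**
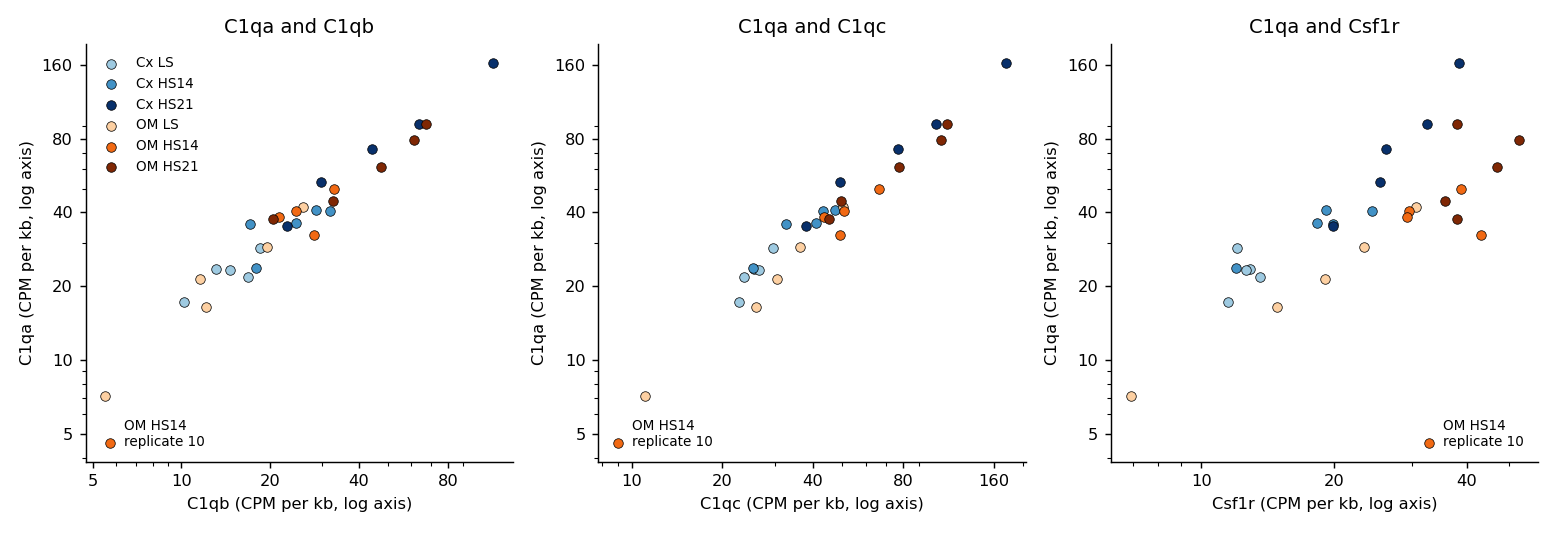
Levels per kilobase (CPM per kilobase, logarithmic axes) of *C1qa* (vertical) against *C1qb*, *C1qc* and *Csf1r* (horizontal), with a point for each of the 30 libraries, marked by tissue and diet. The C1q chains follow each other across groups, while replicate 10 of OM HS14 lies apart from the other libraries, most widely against *Csf1r*, where its ratio of *C1qa* to *Csf1r* was 0.140.

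*Mrc1* was raised in the Cx at HS21 and showed no call in the OM. In the Cx it had 2.98, 2.64, 4.57, 3.43 and 5.71 CPM on LS, 5.95, 8.40, 6.53, 15.8 and 5.60 CPM at HS14, and 14.0, 4.74, 4.53, 11.4 and 11.5 CPM at HS21. Of the HS21 libraries 3 lay above every LS library and 2 within the LS range. The log2 ratio of HS21 to LS was 1.24 (SE 0.34, adjusted *P* = 0.0139), and the call was lost in a fit of all 30 libraries together (adjusted *P* = 0.0825). In the OM, *Mrc1* had 7.79, 2.35, 8.31, 4.79 and 14.9 CPM on LS, 5.38, 5.14, 7.33, 15.8 and 9.64 CPM at HS14, and 22.2, 3.93, 4.46, 6.68 and 6.23 CPM at HS21. Its HS21 libraries lay within the LS range except replicate 11, the highest of all 30 libraries. The log2 ratio of HS21 to LS was 0.18 (SE 0.57, adjusted *P* = 0.963), -0.54 without replicate 11 and -0.04 without replicate 2 of OM LS.

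*Cd163* was near the limit of counting in every group, so the second resident gene could not be compared. The 30 libraries held 63 read pairs of *Cd163*, with 0 to 8 in any library. By group, the 5 libraries together held 10, 11 and 12 read pairs in the Cx on LS, at HS14 and at HS21, and 9, 11 and 10 in the OM. Their exact Poisson 95% intervals, from 4.8 to 18.4 for 10 read pairs and from 6.2 to 21 for 12, overlapped widely and cover counting error only. A limit of 3 read pairs corresponds to 0.206 to 0.516 CPM in the shallowest library of each group. *Cd163*, the ED2 antigen of rat histology, was thus not detectable at a level that allowed a comparison at this depth.

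The scavenger receptors were low. *Msr1* had 1.83, 1.94, 1.07, 1.53 and 3.08 CPM in the Cx on LS, 3.35, 2.85, 4.23, 5.04 and 2.19 CPM at HS14, and 3.96, 1.87, 1.51, 3.48 and 4.49 CPM at HS21. The groups overlapped, and the log2 ratio of HS21 to LS was 0.67 (SE 0.35, adjusted *P* = 0.147). In the OM its mean was 1.59 ± 0.614 CPM on LS, 2.67 ± 1.79 CPM at HS14 and 2.97 ± 0.964 CPM at HS21 (SD, n = 5), with a log2 ratio of HS21 to LS of 0.88 (SE 0.32, adjusted *P* = 0.303). *Marco* had 14 read pairs in all, 3, 2 and 5 in the 3 Cx groups and 3, 0 and 1 in the OM groups. The 0 of OM HS14 had an exact Poisson 95% interval of 0 to 3.69 read pairs. *Cd163* and *Marco* were removed by the filter on low counts, which leaves 8 of the 10 members in every gene-wise test.

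In the Cx at HS21, 7 of the 8 members tested were raised and 0 lowered, against 18.9% of the 14299 genes tested that were raised and 20.5% that were lowered. The median log2 ratio of the 8 members was 1.62, against 0.005 over all genes tested. Every HS21 library lay above every LS library for 6 of them, against 11.8% of all genes. *Msr1* was the member that was not called, and *Mrc1* the raised member whose groups overlapped. With libraries scaled by total counts, the median of all genes moved to 0.134, 30.8% of all genes were raised and raised genes made up 72.7% of the calls, against 47.9% with TMM scaling, and 7 members were raised under each. The number of members raised was also 7 when any single library was left out.

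At HS14 in the Cx, all 8 members had a higher fitted level than on LS, and edgeR called 0 of them. Their log2 ratios ran from 0.55 for *C1qc* to 1.11 for *Mrc1*, with a median of 0.63 against -0.002 for all genes, and their adjusted *P* from 0.056 to 0.148. All 8 had an unadjusted *P* under 0.05 with a higher level, against 9.05% of all genes, while 1.14% of all genes were raised. The groups did not separate for any member, against 2.79% of all genes with every HS14 library above every LS library. DESeq2's Wald test called 6 members, all but *Cd68* and *Msr1*, against 3.05% of all genes raised, and limma on FPKM called 0. Without replicate 10 of Cx HS14, edgeR called *Adgre1*, *Csf1r*, *C1qa* and *C1qc*, with log2 ratios of 0.72, 0.68, 0.72 and 0.66. It called *Adgre1* without replicate 3 of Cx LS and *C1qb* without replicate 7 of Cx HS14.

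**Figure D3:**
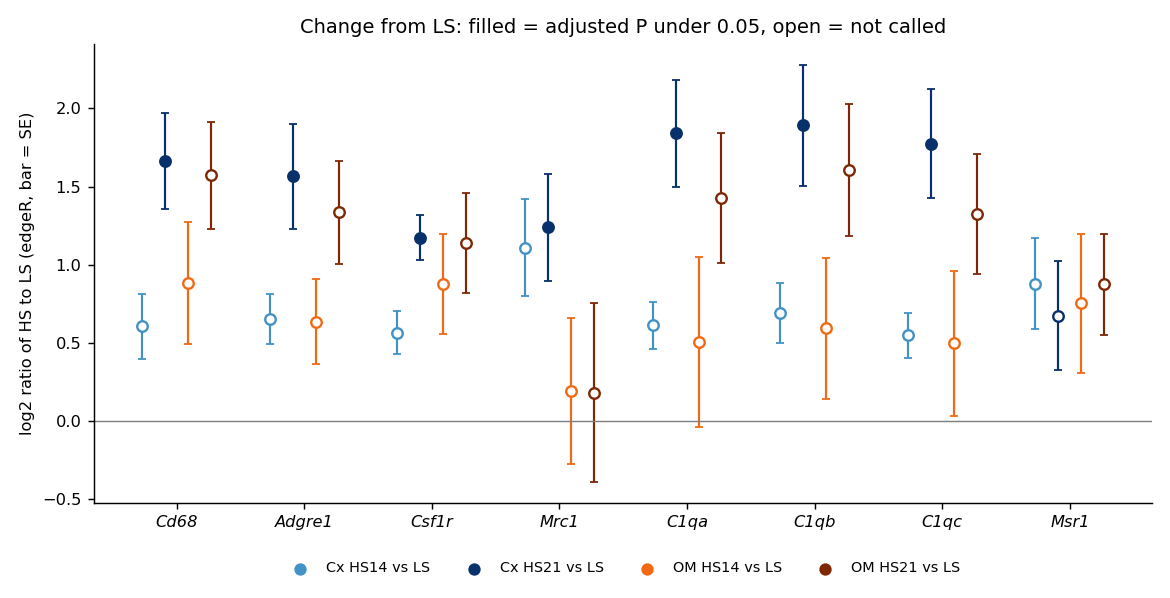
Log2 ratio of HS to LS (vertical axis) with its SE (bars) for the 8 members tested (horizontal axis), at HS14 and HS21 in the Cx and the OM, from edgeR. Filled symbols mark an adjusted *P* under 0.05. The filled symbols are 7 members in the Cx at HS21, and *Mrc1* in the OM lies near 0 at both times.

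At HS21 the OM ratios of 6 members were between 1.14 and 1.60 and edgeR called 0 of 8. An unadjusted *P* under 0.05 with a higher level was found for 7, all but *Mrc1*, against 6.95% of all genes, and 0.639% of all genes were raised. The OM HS21 and LS libraries did not overlap for *Cd68*, *Adgre1* and *Csf1r*, against 2.59% of all genes. DESeq2 called 6 members, all but *Mrc1* and *Msr1*, with adjusted *P* from 0.000729 to 0.0251, against 3.08% of all genes raised. With limma on FPKM, 0 members were called. The median log2 ratio of the members was 1.33, against -0.03 over all genes. Without replicate 13 of OM HS21 edgeR called *Cd68* (adjusted *P* = 0.047).

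At HS14 in the OM edgeR called 0 of 8, as did DESeq2 and limma, and 0.00694% of all genes were raised. An unadjusted *P* under 0.05 was found for *Cd68*, *Adgre1* and *Csf1r*, with log2 ratios of 0.89, 0.63 and 0.87, against 4.28% of all genes with a higher level. No member had every HS14 library above every LS library, against 1.12% of all genes. *Mrc1* had a ratio of 0.19 (SE 0.47) and the C1q chains 0.50 to 0.59. Without each library that stood apart, the ratios of *Cd68*, *Msr1* and the C1q chains moved in opposite directions. Those of *Adgre1*, *Csf1r* and *Mrc1* were not higher without either library, and 0 members were called in either case. Without replicate 10 of OM HS14 the ratios were 1.08 for *Cd68*, 0.77 for *C1qa*, 0.82 for *C1qb* and 0.75 for *C1qc*. They were 0.58 for *Adgre1*, 0.87 for *Csf1r*, 0.13 for *Mrc1* and 0.80 for *Msr1*. Without replicate 2 of OM LS the ratios were 0.69 for *Cd68*, 0.445 for *Adgre1*, 0.66 for *Csf1r* and -0.04 for *Mrc1*. They were 0.27 for *C1qa*, 0.38 for *C1qb*, 0.28 for *C1qc* and 0.61 for *Msr1*.

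At HS21 against HS14 in the Cx, edgeR called *Cd68*, *C1qa* and *C1qc* raised, with log2 ratios of 1.06 (adjusted *P* = 0.0207), 1.23 (adjusted *P* = 0.0325) and 1.23 (adjusted *P* = 0.0408). That is 3 of 8, against 6.5% of all genes raised. With libraries scaled by total counts 6 of 8 were raised, but the median of all genes moved from 0.014 to 0.129, 14.5% of all genes were raised and raised genes made up 76.4% of the calls, against 40.1% with TMM scaling. A higher level with an unadjusted *P* under 0.05 was found for 6, against 15.7% of all genes. *Mrc1* was at 0.13 (SE 0.37) and *Msr1* at -0.20 (SE 0.32), neither called. The count rests on single libraries. It was 0 without replicate 7, 8 or 9 of Cx HS14, 1 without replicate 6 of Cx HS14 or replicate 14 or 15 of Cx HS21, 5 without replicate 12 and 6 without replicate 13 of Cx HS21. A fit of all 30 libraries called 0. In the OM between HS14 and HS21, edgeR, DESeq2 and limma each called 0 members, as did edgeR without replicate 10 of OM HS14. A higher level with an unadjusted *P* under 0.05 was found for *Adgre1* and *C1qb*, against 2.32% of all genes, and 0% of all genes were raised.

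On LS, OM and Cx did not differ by the adjusted threshold for any member, while 40.9% of all genes did in either direction. *Mrc1* had the largest difference, with a log2 ratio of OM to Cx of 0.97 (SE 0.42, adjusted *P* = 0.0909), and *Csf1r* the next, with 0.59 (SE 0.30, adjusted *P* = 0.141). *Mrc1* was the only member of the 8 with an unadjusted *P* under 0.05, against 49.1% of all genes, and DESeq2 and limma called 0. Without replicate 2 of OM LS, *Mrc1* (1.17), *Csf1r* (0.78) and *C1qc* (0.46) were higher in the OM, with adjusted *P* of 0.0128, 0.0029 and 0.0425. In that fit 51.9% of all genes were called in either direction. The difference of the HS21 response between the tissues was tested as an interaction, and edgeR and DESeq2 called 0 of 8 members, with an unadjusted *P* under 0.05 for 0. Of all genes, 0.665% were called and 15.6% had an unadjusted *P* under 0.05 in either direction. Without replicate 2 of OM LS 8.28% of all genes and 0 members were called. For *Mrc1* the HS21 response in the OM was 1.08 log2 units below that in the Cx (-1.08, SE 0.70, adjusted *P* = 0.485), and the other members lay between -0.46 and 0.19. The raised *Mrc1* of the Cx and its uncalled ratio in the OM are therefore not shown to differ.

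Resident and pan-macrophage genes were compared within each library, as the difference in log2 CPM between *Mrc1* and a pan-macrophage gene, which does not depend on how libraries are scaled. In the OM, 4 of 5 libraries at HS21 had less *Mrc1* relative to each pan-macrophage gene than any library on LS. Relative to *Cd68*, *Mrc1* lay at -0.28, -0.18, 0.38, -0.27 and 0.83 log2 units on LS and at 0.13, -1.84, -1.38, -1.72 and -2.25 at HS21. Relative to *Csf1r* it lay between -3.59 and -3.02 on LS and between -5.22 and -3.23 at HS21. Replicate 11 was the only HS21 library within the LS range for *Cd68*, *Adgre1* and *Csf1r*, and the other 4 lay below it. The mean changes from LS were -1.51 against *Cd68*, -1.27 against *Adgre1* and -1.19 against *Csf1r*, with exact two-sided permutation *P* of 0.0317, 0.0397 and 0.0317. After adjustment over the 24 pairs tested in the 4 comparisons with LS, of which 12 were pairs of *Mrc1* and 12 of *Cd163*, each had *P* = 0.0952 by the exact permutation test and did not pass. Over the 12 pairs of *Mrc1* alone each exact permutation *P* was 0.119 after adjustment. Without replicate 11 the changes were -1.89, -1.68 and -1.52, each with an adjusted exact permutation *P* of 0.0317. That was the library with the highest *Mrc1*, and without any other single library no change passed, and those nearest to 0 were -1.30 against *Cd68*, -1.03 against *Adgre1* and -1.02 against *Csf1r*.

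At HS14 in the OM the change of *Mrc1* was -0.72 against *Csf1r* (exact permutation *P* = 0.0317, adjusted *P* = 0.0952), -0.55 against *Cd68* (exact permutation *P* = 0.373) and -0.43 against *Adgre1* (exact permutation *P* = 0.325). Without replicate 10 of OM HS14 the change against *Cd68* was -0.95, not called. In the Cx at HS21 the change of *Mrc1* was smallest against *Csf1r*, while at HS14 it was largest against *Csf1r*. The mean difference of *Mrc1* from *Csf1r* was -3.70 ± 0.445 on LS and -3.71 ± 0.575 at HS21 (SD, n = 5), a change of -0.01 (exact permutation *P* = 0.96). The changes at HS21 were -0.48 against *Cd68* (exact permutation *P* = 0.262) and -0.30 against *Adgre1* (exact permutation *P* = 0.437). At HS14 they were 0.38, 0.36 and 0.50 against *Cd68*, *Adgre1* and *Csf1r*, with exact permutation *P* of 0.413, 0.365 and 0.103. With 5 against 5 libraries the smallest *P* this test can give is 0.00794. The pairs with *Cd163* rest on 0 to 8 read pairs per library and are not described.

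**Figure D4:**
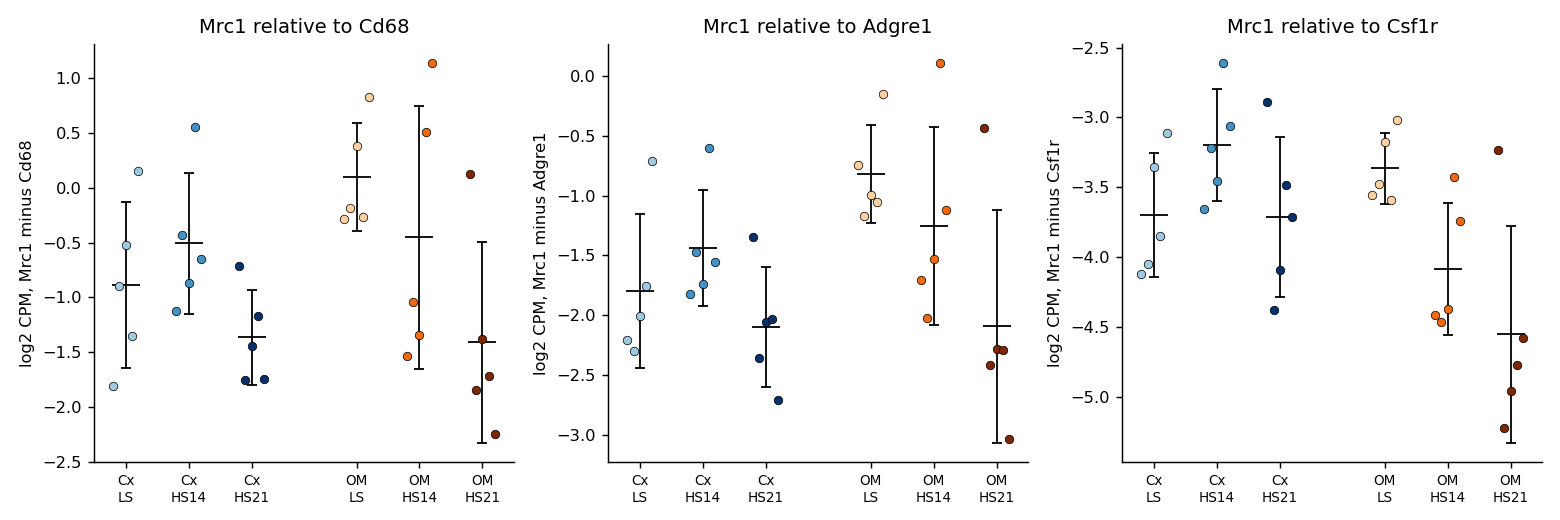
Difference in log2 CPM between *Mrc1* and *Cd68*, *Adgre1* or *Csf1r* (vertical axes) within each library (points), for the 6 groups of tissue and diet (horizontal axis), with the mean and SD of each group (bars). In the OM at HS21, 4 of the 5 libraries lie below every LS library in each panel, and replicate 11 lies within the LS range.

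The members also followed each other from library to library in the Cx. Over the 15 Cx libraries, which share the 3 diets, Pearson's correlation of log2 CPM was 0.977 to 0.989 between the C1q chains and 0.908 to 0.919 between the pan-macrophage genes. For *Mrc1* it was 0.632 with *Cd68*, 0.721 with *Adgre1*, 0.762 with *Csf1r* and 0.799 with *Msr1*. These values describe these libraries and carry no test. Of the 13337 protein-coding genes whose mean reached 1 CPM, *Klra2* (0.985), *LOC501189* (0.976) and *Map4k1* (0.976) followed *Cd68* most closely.

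The genes around the members were read from lists of known roles. Their counts at HS21 stand beside 18.9% of all genes raised and 20.5% lowered in the Cx, and 0.639% raised in the OM. Of the growth factors and receptors of macrophages, 3 of 5 tested were raised in the Cx at HS21 and 1 was lowered. *Csf1*, which encodes the ligand of Csf1r, was raised (log2 ratio 0.81, adjusted *P* = 0.0018), and *Il34*, which encodes its other ligand, was lowered from 40.3 to 32.5 CPM (-0.32, adjusted *P* = 0.0175). The receptor genes *Csf3r* (1.93) and *Csf2ra* (1.48) were raised. In the OM at HS21 edgeR called 0 of these 5, with an unadjusted *P* under 0.05 for 3, while *Csf1* had a ratio of 1.06 (adjusted *P* = 0.108) and *Il34* of 0.00.

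Of 7 transcription factors of myeloid cells, 4 were raised and 2 lowered in the Cx at HS21. *Spi1*, which encodes PU.1, rose from 9.02 to 22.9 CPM (log2 ratio 1.33, adjusted *P* = 0.000198), and *Irf8* (1.13) and *Cebpb* were raised with it. *Maf* was lowered from 235 to 124 CPM (-0.94, adjusted *P* = 9.17e-05), and *Nr1h3*, which encodes the liver X receptor alpha, by a smaller amount (-0.18, adjusted *P* = 0.0242). On LS the mean of *Maf* was 235 CPM in the Cx and 17.7 CPM in the OM, and the cell types that gave this RNA were not tested. In the OM at HS21 *Maf* had a ratio of 0.43 (adjusted *P* = 0.803).

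All 10 of the other pan-macrophage and lysosomal genes were raised in the Cx at HS21, and the median of their log2 ratios was 1.42. *Lyz2*, which encodes lysozyme, rose from 166 to 1106 CPM (2.72, adjusted *P* = 0.00168), and *Laptm5* (1.91), *Aif1* (1.56) and *Cybb* (1.28) rose with it. In the OM 1 of the 10 was raised, *Cd74*, the invariant chain of MHC class II (1.40, adjusted *P* = 0.0392). Of 7 Fc receptors and their signalling chains, 6 were raised in the Cx, among them *Tyrobp* (1.68), *Fcer1g* (1.58) and *Fcgr1a* (1.27). *Fcgr3a*, an activating receptor for IgG, was raised in both tissues, by 2.20 in Cx and by 2.30 in OM libraries (adjusted *P* = 0.00219 and 0.0255).

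Of the other resident or alternatively activated macrophage genes, 8 could be tested in the Cx at HS21, and 5 were raised and 1 was lowered. *Folr2*, a folate receptor of resident macrophages, was raised (log2 ratio 1.55, SE 0.31, adjusted *P* = 0.00212), as were the lectins *Clec10a* (2.33, SE 0.46) and *Siglec1* (2.26, SE 0.63). *Lyve1*, a hyaluronan receptor that lymphatic endothelium also carries, had a smaller ratio (0.41, SE 0.11, adjusted *P* = 0.0102), and *Igf1* was lowered (-1.49, adjusted *P* = 0.0028). On LS the mean of *Igf1* was 11.4 CPM in the Cx and 49.1 CPM in the OM, and its source among cell types was not tested. In the OM edgeR called 0 of the 10 tested, with an unadjusted *P* under 0.05 for 1, and their median log2 ratio was 0.15, against 1.26 for the 10 other pan-macrophage genes. *Folr2* had a ratio of 0.74 there (adjusted *P* = 0.547) and *Lyve1* of 0.13 (adjusted *P* = 0.943). Mean levels in the OM on LS and at HS21 were 8.49 and 19.6 CPM for *Clec10a* and 5.19 and 8.68 CPM for *Siglec1*. The OM mean of *Igf1* was lower at HS21, at 33.1 CPM. The difference in median between the resident and the pan-macrophage lists was not tested.

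Monocyte and inflammatory genes were raised in the Cx, 5 of 8 and 5 of 5 at HS21. In the OM 2 of 8 and 1 of 5 were raised. *Itgam*, the integrin chain CD11b, rose by 2.27 log2 units in each tissue (adjusted *P* = 0.000483 for Cx and 0.0333 for OM), and *Itgax* (CD11c) by 1.15 and 1.46 (adjusted *P* = 0.00159 and 0.00436). *Il1b* (1.93) and *Cd86* (1.24) were raised in the Cx. The chemokine *Cxcl9* was raised in both tissues, by 4.43 log2 units for Cx and 2.65 for OM, with overlapping groups in each.

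Among the partners of C1q, 5 of 6 classical complement genes were raised in the Cx at HS21. *C2* (log2 ratio 2.94, adjusted *P* = 0.00213) and *C4b* (1.93) encode components that C1 cleaves, *C1s* (1.61) and *C1r* (1.04) its proteases, and *Serping1* (1.18) their inhibitor. In the OM 1 of 6 was raised, *C4b* (2.42, adjusted *P* = 0.0302). Of 8 other scavenger receptors and C1q receptors, 3 were raised in the Cx, *Olr1* (0.96), *Colec12* (0.61) and *Scarb1* (0.34), with a median of 0.28. In the OM edgeR called 0 of the 8, with an unadjusted *P* under 0.05 for 5 and a median of 0.58.

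Markers of other cell types moved with the members, and their part in the results was not tested. In the Cx at HS21, 4 of 4 general leukocyte markers tested were raised, 5 of 5 of T cells, 2 of 2 of neutrophils and 3 of 4 of dendritic cells, and 5 of 5 of the proximal tubule were lowered. The 6 T cell markers summed to 2.12 to 5.33 CPM on LS and to 10.9 to 50.0 CPM at HS21, and replicates 15 and 13 were again the highest and the lowest. None of these T cell markers was at 0 throughout a group. The proximal tubule markers summed to 14670 to 16350 CPM in the Cx on LS and to 8820 to 11840 CPM at HS21, and the 3 thick ascending limb and distal tubule markers, all raised, to 2185 to 2760 CPM and 3580 to 4986 CPM. Endothelial markers were raised for 2 of 6 and fibroblast markers for 1 of 5, red cell markers for 1 of 4, beside 18.9% of all genes, and no B cell marker could be tested. In the OM at HS21, 3 of 4 general leukocyte markers were raised (*Ptprc* by 1.70), with 1 of 6 of T cells and 1 of 2 of neutrophils, and edgeR called 0 of 5 proximal tubule markers, with an unadjusted *P* under 0.05 for 0.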

How the data were processed

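Members were the 10 rows of the deposited table with the listed gene symbols. The members and the other gene lists were chosen with earlier results of these data known. Per the submitters' processing notes and the study's methods, the authors aligned clean read pairs to Rnor_6.0 with HISAT2 2.0.5 and counted them per gene with featureCounts 1.5.0-p3 from poly(A), non-strand-specific libraries, and the deposited counts are not normalized. StringTie 1.3.3b is also named in the notes. The deposited FPKM values were scaled by the authors for gene length and library size and served only in an alternative. The deposited table also holds a signal per group, the authors' mean of counts scaled by size factors, and the authors' log2 fold changes. Beside them stand the authors' p-values from DESeq2. These columns were not used.

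Here, edgeR 4.0.16 (R 4.3.3) was run on the counts of the 10 libraries compared, or of 20 for the interaction of tissue and diet, with filterByExpr, TMM scaling, glmQLFit and glmQLFTest and Benjamini and Hochberg's adjustment over all genes tested. The comparisons of HS14 and HS21 with LS share the LS libraries. Log2 CPM used a prior count of 2. Ratios of *Mrc1* and *Cd163* to pan-macrophage genes were tested by two-sided exact permutation, adjusted over 24 pairs, and for *Mrc1* alone over 12, an alternative chosen after seeing the data. Alternatives were other scaling, no filter, DESeq2 1.42.0, limma 3.58.1 on log2(FPKM + 1), a fit of all 30 libraries, a prior count of 0.5, the replicate number as a block and leaving out each library. Of 130 other symbols listed, 128 were found, and 3 stood in more than 1 row, of which the row with more counts was used. Besides the members, at most 4 genes per list were named, those with the smallest *P* in Cx HS21 against LS, and those called against most of their list. The values of 1 listed gene are not reported here. *Siglec1*, *Cebpb*, *C4b* and *Cd74* were named after their values were seen. Intervals and limits of counts cover counting error only.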

Additional observations from a re-analysis of the deposited data

Results flagged for a closer look

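In each group of 5 libraries the highest and lowest log2 CPM of each tested member was compared with the rest, and 4 of 48 sets of values held a library whose gap to its nearest neighbour was more than 0.71 of the whole range. For 1 gene, chance gives about 1 such library in 20 groups. The 48 sets share libraries and the C1q chains moved together, so this rate gives no expected number for them. In replicate 10 of OM HS14, *C1qa* was at 2.31 log2 CPM, against 5.08 to 5.71 in the other 4 libraries. *C1qb* was at 2.66 there, against 4.54 to 5.16, and *C1qc* at 3.31, against 5.57 to 6.18. In replicate 10 of Cx HS14, *C1qa* was at 4.65 log2 CPM, against 5.24 to 5.43 in the other 4. The OM library had the fewest counts of all 30, 5408126 read pairs, while the Cx library lay within the range of depth of its tissue. The Cx library also had the lowest proximal tubule marker sum of its group, 10990 CPM against a median of 15070 CPM. The part of depth and of tissue composition in these values was not tested.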

How the results depend on the processing

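In the Cx at HS21, 7 members were raised in every alternative except the fit of all 30 libraries, which lost *Mrc1* and called 6. DESeq2 raised 6 members in the Cx at HS14, 6 in the OM at HS21 and 6 between HS14 and HS21 in the Cx. For these edgeR raised 0, 0 and 3, and the shares of all genes raised with DESeq2 were 3.05%, 3.08% and 9.56%. The fit of all 30 libraries raised 4 in the OM at HS21, against 2.74% of all genes. It raised 0 between HS14 and HS21 in the Cx, against 1.67%. Between HS14 and HS21 in the Cx, total-count scaling raised 6, against 14.5% of all genes, and limma on FPKM 1, against 5.8%. Total-count scaling also raised 1 of 8 members in the OM against the Cx on LS. Under it 38.8% of all genes were raised there, and raised genes made up 75.1% of the calls. The causes of these differences were not tested.

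When single libraries were left out, the number raised ran from 0 to 4 in the Cx at HS14 (4 without replicate 10 of Cx HS14), was 7 throughout in the Cx at HS21 and 0 throughout in the OM at HS14, and ran from 0 to 1 in the OM at HS21, from 0 to 6 between HS14 and HS21 in the Cx, and from 0 to 3 between OM and Cx on LS (3 without replicate 2 of OM LS). Without that OM LS library 51.9% of all genes were called in either direction between OM and Cx on LS.

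Uncalled log2 ratios near 0 changed sign. For *Mrc1* in the OM between HS14 and HS21 the ratio was 0.073 with total-count scaling and 0.00021 without a filter. For OM against Cx on LS, *C1qa* was at -0.004 with size factors, -0.014 with DESeq2, -0.193 with limma and -0.177 with the replicate block, and *C1qb* at -0.002, -0.130 and -0.120 with the last 3 of these. With total-count scaling *Cd68* was at 0.113, *Adgre1* at 0.129 and *Msr1* at 0.005. Without both OM libraries that stood apart, an alternative chosen after seeing the data, *Mrc1* was at -0.097 in the OM at HS14. The change of *Mrc1* against *Csf1r* in the Cx at HS21 was 0.004 with a prior count of 0.5, and ran from -0.221 to 0.152 over the libraries left out.

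Other ranges over the libraries left out that crossed 0 were, for *Mrc1*, -0.156 to 0.566 in the OM at HS14, -0.542 to 0.554 in the OM at HS21, -0.068 to 0.474 between HS14 and HS21 in the Cx, and -0.738 to 0.328 in the OM, where *Msr1* ran from -0.055 to 0.631. Between OM and Cx on LS they were -0.337 to 0.014 for *Cd68*, -0.273 to 0.030 for *Adgre1*, -0.311 to 0.213 for *C1qa* and -0.266 to 0.205 for *C1qb*. For the interaction they were -0.295 to 0.167 for *Cd68*, -0.481 to 0.119 for *Adgre1*, -0.231 to 0.195 for *Csf1r*, -0.476 to 0.161 for *C1qb* and -0.032 to 0.389 for *Msr1*.

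The labels number libraries 1 to 15 in both tissues without saying that equal numbers are the same rat. Deviations from the group means of 14071 genes correlated between equal numbers from -0.082 to 0.508, with 12 of 15 pairs over 0.1. The pairs under 0.1 were numbers 2 and 10, which hold the OM libraries that stood apart, and number 5. As 3 pairs were not over 0.1, the numbers were not taken as pairs. However, 13 of the 15 correlated best with their own number, which hints at shared rats. The study states that the collected kidneys were dissected into both tissues, so results in Cx and OM may not be independent. With the replicate number as a block, 0 members were called between OM and Cx on LS and in the interaction, as without it, and *Csf1r* in the interaction moved to 0.120.

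The share of all genes called was 2.33% in the Cx at HS14 (5.58% with DESeq2, 0.123% with all 30 libraries), 39.4% at HS21 (25.1% without a filter, 14.7% with all 30 libraries), 0.769% in the OM at HS21 (4.01% and 3.27% with DESeq2 and all 30 libraries), 0.00694% in the OM at HS14 (0.697% with DESeq2), 16.2% between HS14 and HS21 in the Cx (2.77% with all 30 libraries) and 0.665% for the interaction (3.62% with DESeq2). Over the libraries left out it ran from 0.593% to 3.3% in the Cx at HS14, from 0.0611% (without replicate 3 of OM LS) to 1.19% in the OM at HS21, from 7.07% to 24.2% between HS14 and HS21 in the Cx, and from 0.273% to 8.28% (without replicate 2 of OM LS) for the interaction. Depth did not allow a comparison of *Cd163* and *Marco*.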

Other observations

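Over the 15 Cx libraries, the genes whose log2 CPM followed *Mrc1* most closely among 13337 protein-coding genes were *Lox*, which encodes the collagen cross-linking enzyme lysyl oxidase (Pearson's *r* = 0.933), *Zfp94* (0.904) and *Cyp1b1* (0.895). The correlations of *Mrc1* with the C1q chains, 0.721 to 0.747, were lower than these. The libraries share the 3 diets, the comparison was chosen after the values of *Mrc1* were seen, and the correlations carry no test.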
